A study of Mus musculus with 3 samples.

Results

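Primary mouse hepatic stellate cells labelled TLR4-/- were compared with wild-type cells across all genes measured by RNA sequencing, with 1 library on each side. The genes were those with an FPKM of at least 1 in either library, where FPKM is the fragment number scaled by transcript length and library size and a gene absent from a deposited table counts as 0. They numbered 12098, of 12371 that reached this level in any library of the series. The cells came from male C57BL/6 mice aged 24 weeks with the genotype label TLR4-/- or wild-type. The CD44-/- library of the same series came from mice of the same sex, strain and age and is given beside the others where it bears on a value. All the cells were prepared by enzyme perfusion and a density gradient, depleted of CD11b-carrying macrophages with magnetic beads, grown for 3 days with serum and kept for 24 h without it. The allele behind the TLR4-/- label and any pooling of animals are not stated in what was used here, and the series text speaks of triplicates while 1 library per genotype was analysed here.

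Hepatic stellate cells are the vitamin A-storing pericytes of the liver sinusoid. After injury, and on culture plastic, they turn into contractile cells that make collagen, and actin tension, growth factors and stress kinases shape that change. TLR4 is the surface receptor for bacterial lipopolysaccharide, acts with the co-receptor MD-2 (Ly96) and with Cd14, and signals to the NF-kB and AP-1 transcription factors. Amino acid supply is watched by a separate pathway, in which the factor ATF4 switches on genes for amino acid synthesis, uptake and tRNA charging.

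The 2 libraries held 23659074 (labelled TLR4-/-) and 24078669 (wild type) expected counts, and no difference below has a replicate check. Tlr4 stood at 10.9 FPKM in the library labelled TLR4-/-, 16.8 in CD44-/- and 15.8 in wild type, a ratio to wild type of 0.693 (95% interval 0.639 to 0.752). Reads from outside a deleted stretch would count here, so this level does not settle the genotype, and the library is named by its label. Intervals here and below are exact binomial intervals on the counts and cover counting error only. Stellate markers summed to 6090 FPKM in the library labelled TLR4-/- and 7050 FPKM in wild type, led by the matrix proteoglycan decorin (Dcn, 2951 and 2614 FPKM), and none of the 30 was at 0 in either library. Without Dcn the sums were 3140 FPKM in the library labelled TLR4-/- and 4430 FPKM in wild type, and the marker list itself lay lower, with a median log2 ratio of FPKM + 1 of -0.24 over 28 genes and 7 at least 1.5-fold lower. Markers of sinusoidal endothelium summed to 875 FPKM in the library labelled TLR4-/-, 932 in CD44-/- and 1390 in wild type, and 20 of the 24 measured members were at least 1.5-fold lower in the first of these than in wild type, 17 of them at least 2-fold; without Eng the sums were 487 FPKM in the library labelled TLR4-/-, 474 in CD44-/- and 759 in wild type. Macrophage markers summed to 31.6 FPKM in the library labelled TLR4-/-, 756 in CD44-/- and 76.5 in wild type. Of the 24 listed, 13 were below FPKM 1 in both the library labelled TLR4-/- and wild type. Among these markers, Clec4f was at 0 in the library labelled TLR4-/-, and Aif1 and Fcgr1 were at 0 in both that library and wild type. Vascular smooth muscle markers, which stellate cells share in part, summed to 736 FPKM in the library labelled TLR4-/- and 1010 FPKM in wild type, or 221 FPKM (library labelled TLR4-/-) and 412 FPKM (wild type) without Tagln, with 6 of 8 members at least 1.5-fold lower. The part of these other cells in the results below was not tested, beyond a recount of the lists without some of their markers. That recount left out markers of endothelium, macrophages, hepatocytes, biliary epithelium, lymphocytes and neutrophils. Smooth muscle and portal fibroblast markers stayed in. Fewer cells of a type cannot be told apart from less RNA per cell.

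Most genes differed little between the libraries: 68.0% lay within 1.25-fold of wild type, and the median log2 ratio of FPKM + 1 was 0.027. This ratio, with the library labelled TLR4-/- on top, is the scale of all list medians and counts below, and its 5th and 95th percentiles were -0.711 and 0.564. The distribution was lopsided. Between 1.25-fold and 1.5-fold, 1414 genes were higher and 1055 lower, whereas at 1.5-fold or more 544 were higher (4.50% of genes) and 863 lower (7.13%). At 2-fold or more, 126 were higher (1.04%) and 326 lower (2.69%). Genes with short transcripts were past 1.5-fold more often, at 7.20% higher and 11.8% lower among the 2417 shortest against 2.81% and 3.68% among the 2421 longest. On the FPKM scale used here, higher genes were thus more numerous among small differences and lower genes among large ones. The counts between 1.25-fold and 1.5-fold were not redone under the other scalings tried.

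To describe such groups, 134 lists of genes were drawn up for surface proteins, secreted proteins, transcription factors, cell processes and cell type markers. A list was said to lie to one side when at least 5 members were measured, its median stood at least 0.2 from that of all genes, and at least 75% of its members were on that side. Of 127 lists with enough members, 11 lay higher in the library labelled TLR4-/- and all 11 were processes. The 35 that lay lower were 5 lists of surface proteins, 9 of secreted proteins, 5 of transcription factors, 10 processes and 6 of cell type markers. Many lists share genes, so they are not separate observations. They were also chosen with earlier results of these data known, so these tallies describe the lists drawn up and no more. The plot of process list members shows the spread inside each.

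**Figure D1:**
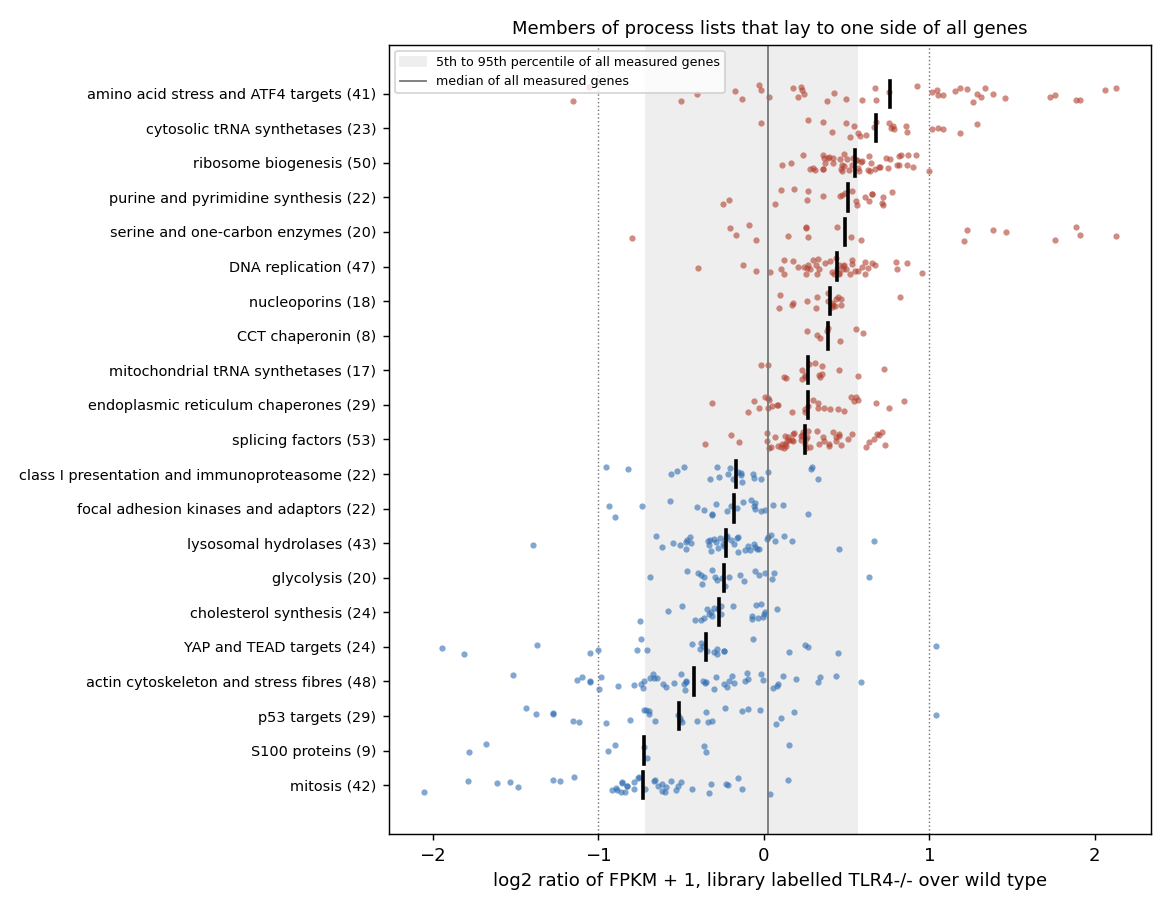
Log2 ratio of FPKM + 1 (library labelled TLR4-/- over wild type, x axis) for each measured member (points) of the process lists that lay to one side, with the number measured in brackets and the list median as a black bar. Red lists lay higher and blue lists lower; the band is the 5th to 95th percentile of all 12098 genes, dotted lines mark 2-fold, and all 50 ribosome biogenesis genes sit right of the median of all genes.

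Genes that build and feed the translation apparatus were higher in the library labelled TLR4-/-. All 50 measured ribosome biogenesis genes lay above the median of all genes, with a median of 0.55 and the lowest at 0.11, and 21 of them (42.0%) were at least 1.5-fold higher against 4.50% of all genes. Npm1, the nucleolar chaperone nucleophosmin, stood at 557 FPKM in the library labelled TLR4-/-, 331 in CD44-/- and 294 in wild type, 1.89-fold above wild type (1.84 to 1.93). Dkc1, the pseudouridine synthase dyskerin, stood at 22.8 FPKM in the library labelled TLR4-/-, 12.1 in CD44-/- and 10.9 in wild type, 2.09-fold (1.91 to 2.28). Nop56, a core protein of the box C/D particles that methylate ribosomal RNA, stood at 60.3 FPKM in the library labelled TLR4-/-, 32.6 in CD44-/- and 31.8 in wild type, 1.89-fold (1.78 to 2.02). In each of these genes the CD44-/- value lay near wild type and the library labelled TLR4-/- stood apart. The library labelled TLR4-/- was the highest of the 3 in 50 of the 50 genes, while it was the highest in 39.8% of all genes. The finished ribosome showed a smaller difference: 80 cytosolic ribosomal protein genes had a median of 0.15, short of the rule, and 1 was past 1.5-fold, Rpl30, a gene with near-identical copies whose value is uncertain. Rpl27 was 1.30-fold higher (1.26 to 1.34), at 545 FPKM against 420 in wild type.

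The enzymes that load amino acids onto cytosolic tRNAs stood further up still. The 23 cytosolic tRNA synthetase genes had a median of 0.68, 22 lay above the median of all genes, and 14 were at least 1.5-fold higher. Nars, for asparagine, stood at 203 FPKM in the library labelled TLR4-/-, 109 in CD44-/- and 95.3 in wild type, 2.13-fold (2.06 to 2.19). Wars, for tryptophan, stood at 98.6 FPKM in the library labelled TLR4-/-, 55.2 in CD44-/- and 39.7 in wild type, 2.48-fold (2.35 to 2.57). Eprs, which charges both glutamate and proline tRNAs, stood at 88.6 FPKM in the library labelled TLR4-/-, 48.4 in CD44-/- and 38.4 in wild type, 2.31-fold (2.23 to 2.39). The 17 mitochondrial synthetases differed less, with a median of 0.27 and 1 member past 1.5-fold, Ears2 at 5.65 FPKM against 3.02 in wild type. Among 51 genes with Eif symbols, a group of initiation factors with their kinases and binding proteins, the median of 0.21 and the share of members above the median of all genes were short of the rule. Eif4ebp1, the cap-binding inhibitor 4E-BP1, was 1.71-fold higher (1.63 to 1.78), at 226 FPKM against 133 in wild type.

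Those synthetases overlap with known targets of ATF4, and that list had the highest median of all, 0.76 over 41 genes. Of the 41, 24 were past 1.5-fold higher and 2 past it lower. Its members were read by role after their values were seen. Genes of amino acid synthesis and uptake were far above wild type: Asns, asparagine synthetase, stood at 104 FPKM in the library labelled TLR4-/-, 42.7 in CD44-/- and 30.7 in wild type, 3.40-fold (3.20 to 3.61). Psat1, the middle enzyme of serine synthesis, stood at 133 FPKM in the library labelled TLR4-/-, 43.1 in CD44-/- and 38.5 in wild type, 3.45-fold (3.28 to 3.63). Shmt2 and Mthfd2, mitochondrial enzymes that pass on one-carbon units from serine, were 2.65-fold (2.52 to 2.78) and 2.45-fold (2.23 to 2.68) higher. Trib3, a pseudokinase that feeds back on ATF4, was 2.69-fold higher (2.38 to 3.06). The factors and stress genes of the same list did not share that size. Atf4 itself stood at 129 FPKM against 114 in wild type, 1.13-fold (1.09 to 1.18), and Ddit3, the factor CHOP, at 45.6 against 38.3 in wild type. Chac1, a glutathione-degrading enzyme, stood at 5.22 FPKM against 5.28 in wild type. Sesn2, a leucine sensor, was 1.35-fold lower (1.23 to 1.49) and Gdf15, a secreted stress hormone, 2.25-fold lower (2.09 to 2.43). Atf3, a stress-induced factor, stood at 0.83 FPKM against 2.80 in wild type. The serine and one-carbon list had a median of 0.49 over 20 genes with 9 past 1.5-fold higher and 1 lower, and it no longer met the rule when genes below FPKM 1 were kept in.

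The promoters of these genes were read for the amino acid response motif TGATGNAA, to which ATF4 dimers with C/EBP proteins are known to bind. It was present in 10 of 34 promoters of the ATF4 list and in 5 of 16 of the cytosolic tRNA synthetases, against 2.19% of 9562 promoters of measured genes. The ATF4 list was drawn up from known targets, so its share is partly built in. The 4 promoters below come from genes higher in the library labelled TLR4-/- and were chosen after the matches were seen. They are from RefSeq on GRCm38.p6 and run from 250 bases before to 50 bases after the annotated start, 5′ to 3′ on the gene's strand, with the motif on either strand in capitals. Asns is at chr6:7693160-7693459 on the minus strand with the match beginning at -23 from the start. Iars, isoleucyl-tRNA synthetase, is at chr13:49681880-49682179 on the plus strand with the match at 7. Gars, glycyl-tRNA synthetase, is at chr6:55037751-55038050 on the plus strand with the match at -30. Trib3 is at chr2:152344011-152344310 on the minus strand with the match at 14.
Asns: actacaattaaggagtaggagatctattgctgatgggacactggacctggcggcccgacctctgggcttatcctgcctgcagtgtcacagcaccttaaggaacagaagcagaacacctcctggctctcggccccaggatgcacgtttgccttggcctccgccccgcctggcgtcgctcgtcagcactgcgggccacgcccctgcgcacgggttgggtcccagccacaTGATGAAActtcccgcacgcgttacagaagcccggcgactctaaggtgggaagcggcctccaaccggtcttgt
Iars: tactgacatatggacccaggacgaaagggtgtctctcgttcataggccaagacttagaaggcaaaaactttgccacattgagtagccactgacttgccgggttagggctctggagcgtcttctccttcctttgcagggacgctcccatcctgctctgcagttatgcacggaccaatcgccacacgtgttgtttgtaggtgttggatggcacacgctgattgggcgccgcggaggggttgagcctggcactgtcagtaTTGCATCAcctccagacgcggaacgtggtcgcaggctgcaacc
Gars: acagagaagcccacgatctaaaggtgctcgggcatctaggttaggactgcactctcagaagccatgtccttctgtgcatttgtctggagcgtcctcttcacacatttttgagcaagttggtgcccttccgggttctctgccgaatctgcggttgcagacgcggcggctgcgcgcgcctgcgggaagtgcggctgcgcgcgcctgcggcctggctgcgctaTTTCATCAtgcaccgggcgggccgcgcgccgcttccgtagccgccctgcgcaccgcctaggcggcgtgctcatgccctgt
Trib3: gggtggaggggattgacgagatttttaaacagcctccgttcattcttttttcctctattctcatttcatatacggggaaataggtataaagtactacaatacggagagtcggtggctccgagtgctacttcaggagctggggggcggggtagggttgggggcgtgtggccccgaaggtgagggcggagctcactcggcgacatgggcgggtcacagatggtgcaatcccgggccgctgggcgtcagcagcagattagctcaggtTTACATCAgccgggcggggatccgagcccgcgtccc
Iars stood at 61.2 FPKM in the library labelled TLR4-/-, 29.8 in CD44-/- and 29.0 in wild type, 2.11-fold (2.02 to 2.21), and Gars was 1.70-fold higher (1.64 to 1.76). In all 4 the match lay within 30 bases of the start. Of the 209 measured genes with the motif in this window, 11.5% were at least 1.5-fold higher, against 3.89% of those without it. The shares at least 1.5-fold lower were 8.13% with it and 6.48% without, and both medians were close to 0, at 0.04 and 0.03. The 209 genes include the motif-holding members of the 2 lists above, so this contrast is partly built in too. Within the ATF4 list the medians were 0.57 with the motif and 0.63 without it. Within the cytosolic tRNA synthetases they were 0.78 and 0.57. Atf3 and Chac1 also hold the motif, so holding it did not go with one direction.

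Further groups that lay higher were nucleotide synthesis, nuclear pores, splicing and the cytosolic chaperonin. Purine and pyrimidine synthesis had a median of 0.51 over 22 genes with 8 past 1.5-fold higher and 0 lower. Its members furthest up were Dhodh, a mitochondrial step of pyrimidine synthesis, at 7.53 FPKM against 3.98 in wild type, and Cad, the enzyme that starts that route, at 21.2 against 12.5 in wild type. Nucleoporins had a median of 0.40 over 18 genes, all above the median of all genes, and 17 of the 18 were highest of the 3 libraries in the library labelled TLR4-/-. Nup43, an outer ring subunit of the pore, stood at 11.6 FPKM against 6.10 in wild type. Splicing factors had a median of 0.25 over 53 genes, with Sf3b3 at 65.7 FPKM against 39.2 in wild type. The 8 subunits of the CCT chaperonin, which folds actin and tubulin, all lay higher with a median of 0.39, from 0.26 to 0.60. Cct8 was the one past 1.5-fold, at 131 FPKM against 86.0 in wild type. Proteasome subunits, mitochondrial ribosomal proteins and the mitochondrial import machinery lay just outside the rule, with medians of 0.22, 0.22 and 0.21 and with 32 of 39, 59 of 78 and 27 of 31 members above the median of all genes.

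Leading chaperones of the cytosol, the mitochondrion and the endoplasmic reticulum were higher. Hspa8, the constitutive cytosolic HSP70, was among the most abundant of them, at 1616 FPKM in the library labelled TLR4-/-, 1110 in CD44-/- and 837 in wild type, 1.93-fold (1.91 to 1.95). The mitochondrial chaperonin Hspd1 stood at 206 FPKM in the library labelled TLR4-/-, 115 in CD44-/- and 102 in wild type, 2.02-fold (1.96 to 2.09). Hspa5, the endoplasmic reticulum chaperone BiP, stood at 559 FPKM in the library labelled TLR4-/-, 380 in CD44-/- and 310 in wild type, 1.80-fold (1.77 to 1.83). All 3 libraries kept the same order in these genes, with wild type lowest. The endoplasmic reticulum list had a median of 0.27 over 29 genes with 3 past 1.5-fold, and it was short of the rule with a filter at FPKM 5. Calr, its most abundant member, stood at 584 FPKM against 608 in wild type. The 24 cytosolic heat shock genes were mixed, with 8 past 1.5-fold higher and 3 past it lower.

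Cell cycle genes parted by phase. The 47 DNA replication genes had a median of 0.44; 44 lay above the median of all genes and 10 were at least 1.5-fold higher. Mcm2, a subunit of the replicative helicase, stood at 30.7 FPKM in the library labelled TLR4-/-, 25.3 in CD44-/- and 15.3 in wild type, 2.00-fold (1.87 to 2.15). Uhrf1, which keeps DNA methylation through replication, stood at 16.9 FPKM in the library labelled TLR4-/-, 16.6 in CD44-/- and 8.82 in wild type, 1.91-fold (1.76 to 2.10). Mitotic genes went the other way, with a median of -0.73 over 42 members and 29 (69.0%) at least 1.5-fold lower, against 7.13% of all genes. Ccnb2, a mitotic cyclin, stood at 1.38 FPKM in the library labelled TLR4-/-, 2.83 in CD44-/- and 8.88 in wild type, 6.43-fold lower (4.76 to 8.84). Cdc20, an activator of the anaphase-promoting complex, stood at 2.94 FPKM in the library labelled TLR4-/-, 3.73 in CD44-/- and 11.1 in wild type, 3.76-fold lower (3.08 to 4.62). Wild type was the highest of the 3 libraries in 40 of the 42 mitotic genes, against 28% of all genes. It was the lowest in 40 of the 47 replication genes, against 35.8% of all genes. This split thus set wild type apart from both other libraries. Pttg1 (securin) and Mad2l1 lay near wild type, at log2 ratios of -0.13 and -0.15. The p53 target list also lay lower, with a median of -0.51 over 29 genes and 13 past 1.5-fold, and its median in CD44-/- was -0.81. Cdkn1a, the cell cycle inhibitor p21, stood at 185 FPKM in the library labelled TLR4-/-, 123 in CD44-/- and 303 in wild type, 1.64-fold lower (1.59 to 1.68).

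**Figure D2:**
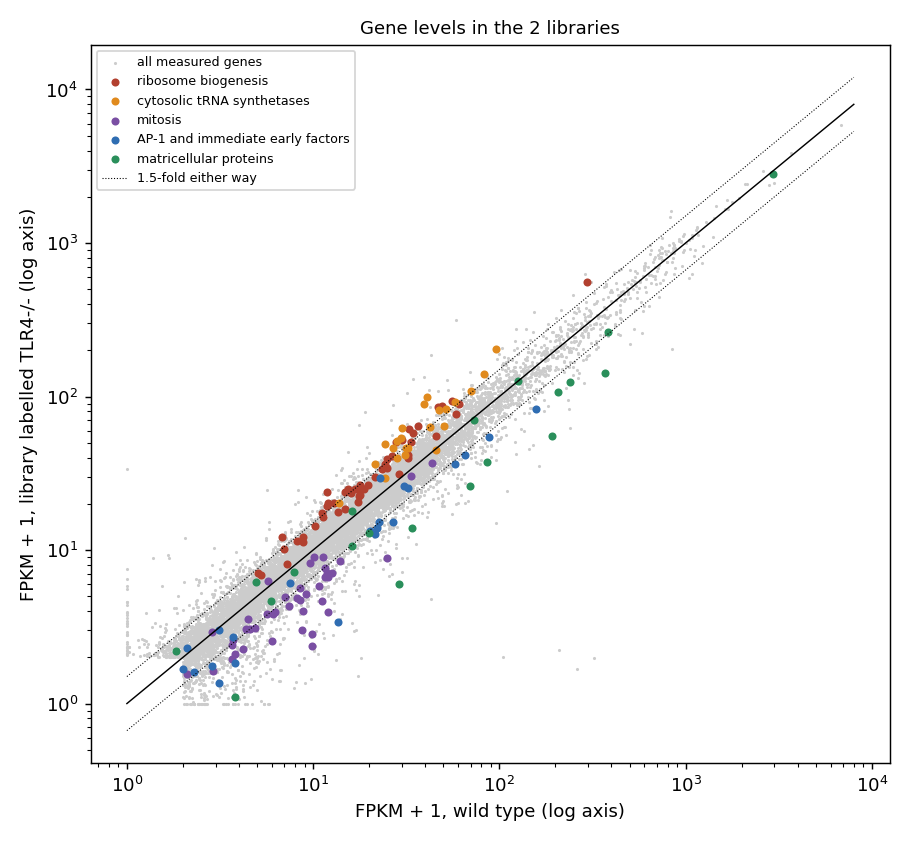
FPKM + 1 of each measured gene in wild type (x axis) and in the library labelled TLR4-/- (y axis), both on log axes, with 5 lists coloured and lines at equality and at 1.5-fold either way. All 50 ribosome biogenesis genes (red) and 22 of the 23 tRNA synthetase genes (orange) lie above the line of equality, and mitotic genes (purple) lie mostly below it at low levels.

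Contractile and tension-linked genes were lower in the library labelled TLR4-/-. The list of actin cytoskeleton and stress fibre genes had a median of -0.42 over 48 members, of which 18 were at least 1.5-fold lower and 1 higher. Acta2, the smooth muscle actin that marks activated stellate cells, stood at 81.5 FPKM in the library labelled TLR4-/-, 148 in CD44-/- and 235 in wild type, 2.88-fold lower (2.79 to 2.98). Myl9, a light chain of non-muscle and smooth muscle myosin, stood at 80.0 FPKM in the library labelled TLR4-/-, 105 in CD44-/- and 173 in wild type, 2.16-fold lower (2.04 to 2.27). Actb, a main cytoskeletal actin, stood at 737 FPKM in the library labelled TLR4-/-, 1138 in CD44-/- and 1221 in wild type, 1.66-fold lower (1.63 to 1.68). In 35 of the 48 genes wild type was the highest of the 3, against 28% of all genes. The vascular smooth muscle markers, some of them in this list too, had a median of -0.89 over 8 genes, and their part in these values was not tested. Targets of YAP and TEAD, which respond to tension and matrix stiffness, had a median of -0.35 over 24 genes with 8 past 1.5-fold lower and 1 higher. Focal adhesion kinases and adaptors had a median of -0.18 over 22 genes, with 3 past 1.5-fold lower and 0 higher. This list no longer met the rule when genes below FPKM 1 were kept in. Its member Bcar1, the adhesion scaffold p130Cas, stood at 50.1 FPKM in the library labelled TLR4-/-, 51.2 in CD44-/- and 96.7 in wild type.

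Some factors known to act on such genes were also lower, and their part in those values was not tested. Srf, serum response factor, stood at 12.8 FPKM in the library labelled TLR4-/-, 19.1 in CD44-/- and 21.04 in wild type, 1.64-fold lower (1.53 to 1.76). Its actin-sensing coactivator Mrtfa stood at 11.2 FPKM in the library labelled TLR4-/-, 13.1 in CD44-/- and 20.1 in wild type, 1.79-fold lower (1.64 to 1.90). Vgll3, a TEAD cofactor, stood at 16.5 FPKM in the library labelled TLR4-/-, 15.6 in CD44-/- and 37.6 in wild type, 2.27-fold lower (2.13 to 2.43). Yap1 did not share this, at 42.9 FPKM against 44.8 in wild type. The 13 Srf, Mef2 and myocardin-related genes had a median of -0.23.

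The TEAD motif GGAATG was found in 14 of 41 promoters of the actin list and 9 of 17 of the YAP and TEAD targets, against 11.7% of all promoters, and here too the second list was drawn up from known targets. Genes with the motif did not stand lower as a whole: 7.66% were at least 1.5-fold lower with it and 6.36% without. Of the YAP and TEAD targets, those with the motif had a median of -0.43 and those without it 0.04, whereas in the actin list the medians were -0.32 with it and -0.47 without it. Ccn1, the matricellular gene CYR61, lies at chr3:145649936-145650235 on the minus strand with the match at -103, and Acta2 at chr19:34255324-34255623 on the minus strand with the match at -146. Both are printed as above, from RefSeq on GRCm38.p6, with GGAATG on either strand in capitals, and were chosen after the matches were seen because both are textbook genes of stellate cell activation.
Ccn1: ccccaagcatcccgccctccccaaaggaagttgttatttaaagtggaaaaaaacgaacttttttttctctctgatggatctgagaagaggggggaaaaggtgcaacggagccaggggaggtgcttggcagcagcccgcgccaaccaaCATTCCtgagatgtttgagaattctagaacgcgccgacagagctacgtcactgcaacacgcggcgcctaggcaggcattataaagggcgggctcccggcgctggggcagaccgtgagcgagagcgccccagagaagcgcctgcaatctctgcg
Acta2: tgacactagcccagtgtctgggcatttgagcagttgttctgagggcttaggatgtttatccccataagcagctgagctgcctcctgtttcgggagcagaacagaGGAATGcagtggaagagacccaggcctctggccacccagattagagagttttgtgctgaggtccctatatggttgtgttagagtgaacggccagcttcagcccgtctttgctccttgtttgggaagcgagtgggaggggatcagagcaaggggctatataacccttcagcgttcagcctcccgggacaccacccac
Ccn1 stood at 53.9 FPKM in the library labelled TLR4-/-, 134 in CD44-/- and 192 in wild type, 3.56-fold lower (3.41 to 3.72). Both strict forms searched of the CArG box, the serum response element, were in 4 and 3 of all promoters, too few to describe a list. The search covered 7 motifs on both strands in the 40 lists outside the markers that lay to one side, 280 pairs in all, so a high share in a single pair is a description and no more. The AP-1 motif TGANTCA was in 4 of 10 promoters of secreted cytokines and 6 of 26 of hormone and lipid receptors, against 4.73% of all. The cAMP response motif TGACGTCA was in 3.30% of all promoters and in at most 2 promoters of any list. The E-box CACGTG, added after the values were seen, was in 10.4% of all promoters, in 10 of 45 of ribosome biogenesis and in 10 of 34 of lysosomal hydrolases, lists on opposite sides. The plot of motif shares gives all these lists.

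**Figure D3:**
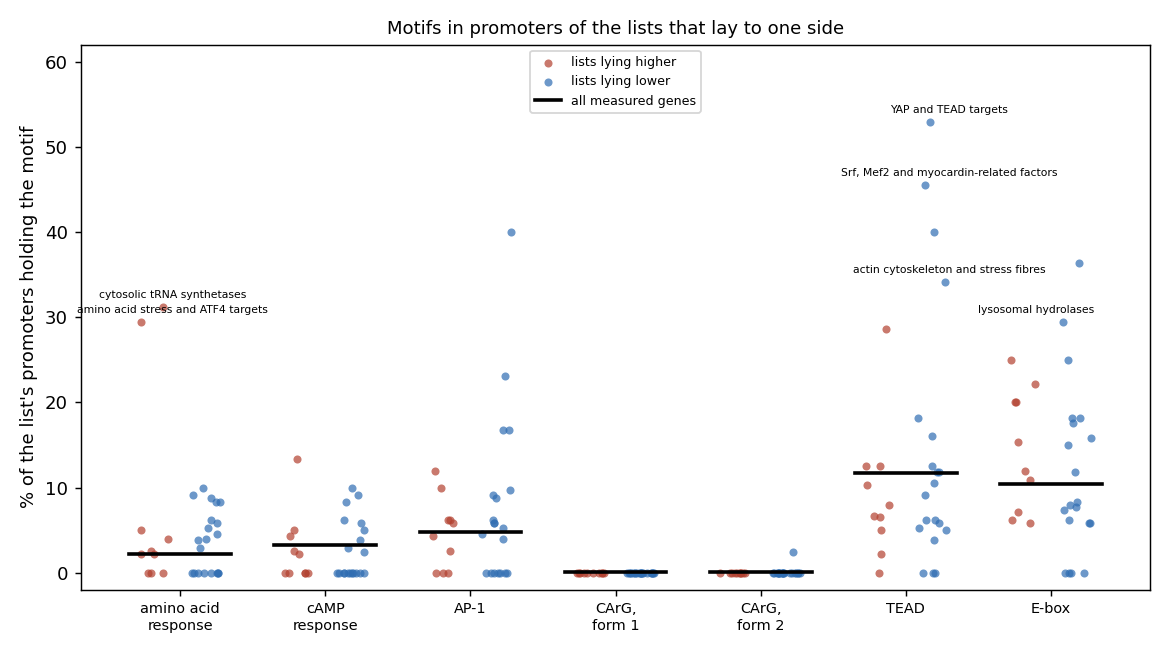
Percentage of promoters holding each of 7 motifs (x axis) for every list with at least 10 promoters that lay higher (red points) or lower (blue points) in the library labelled TLR4-/- than in wild type; black bars give all measured genes. The ATF4 and tRNA synthetase lists stand near 30% for the amino acid response motif, where all genes stand at 2.19%, and the YAP and TEAD targets at 52.9% for the TEAD motif.

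Surface proteins as a class had a median of -0.04 over 567 genes. Of these, 29 (5.11%) were at least 1.5-fold higher and 68 (12%) lower, against 4.50% and 7.13% of all genes. At the upper end were carriers of amino acids and folate. Slc7a5, the light chain of the large neutral amino acid exchanger, stood at 78.0 FPKM in the library labelled TLR4-/-, 18.5 in CD44-/- and 17.95 in wild type. Slc19a1, the reduced folate carrier, stood at 19.5 FPKM in the library labelled TLR4-/-, 7.32 in CD44-/- and 7.33 in wild type, 2.67-fold (2.41 to 3.04). Slc6a9, a glycine transporter, stood at 38.8 FPKM in the library labelled TLR4-/-, 19.7 in CD44-/- and 18.3 in wild type, 2.13-fold (2.00 to 2.26), and Slc1a5, a glutamine transporter, at 26.2 FPKM in the library labelled TLR4-/-, 23.5 in CD44-/- and 13.3 in wild type. The first 3 of these carriers stood apart from both other libraries, whereas in Slc1a5 the CD44-/- library was near the library labelled TLR4-/-. Of 181 solute carriers in all, 15 (8.29%) were at least 1.5-fold higher and 7 (3.87%) lower, against 4.50% and 7.13% of all genes. Their median of 0.04 lay near that of all genes, so the list as a whole did not lie to one side. Lrp8, a lipoprotein and reelin receptor, was 2.63-fold higher (2.41 to 2.84), at 12.7 FPKM against 4.83 in wild type. Pcdh9, a protocadherin, was 1.95-fold higher (1.84 to 2.09).

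At the lower end of the surface class, the genes named by rule included the endothelial genes Cdh5, Cldn5, Pecam1, Tie1 and Stab1, members of the endothelial marker list, whose median was -1.61, and the adhesion molecule Cadm1, at 0.45 FPKM against 8.69 in wild type. The other two were Cd36 and Cd9. Cd9, a tetraspanin of many cell types, stood at 16.2 FPKM in the library labelled TLR4-/-, 46.3 in CD44-/- and 54.8 in wild type, 3.38-fold lower (3.05 to 3.74). Cd36, a fatty acid scavenger receptor also made by macrophages and endothelium, stood at 1.80 FPKM in the library labelled TLR4-/-, 67.3 in CD44-/- and 7.93 in wild type. Without the markers of other cell types, 552 surface genes had 29 members (5.25%) at least 1.5-fold higher and 57 (10.3%) lower.

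Receptors for hormones and lipids coupled to G proteins lay lower, with a median of -0.43 over 34 genes and 11 past 1.5-fold, 0 of them higher. Agtr1a, the angiotensin II receptor that drives stellate cell contraction, stood at 54.9 FPKM in the library labelled TLR4-/-, 135 in CD44-/- and 95.01 in wild type, 1.73-fold lower (1.65 to 1.81). Lpar6, a lysophosphatidic acid receptor, stood at 4.07 FPKM in the library labelled TLR4-/-, 4.24 in CD44-/- and 9.53 in wild type, 2.34-fold lower (2.01 to 2.74). P2ry14, a receptor for UDP-glucose and the most abundant of the list, stood at 363 FPKM in the library labelled TLR4-/-, 388 in CD44-/- and 535 in wild type, 1.47-fold lower. The CD44-/- values lay near the library labelled TLR4-/- for Lpar6 and P2ry14 and on the other side of wild type for Agtr1a. This list no longer met the rule with no filter or with a filter at FPKM 5. Integrins showed no common direction, with a median of -0.04 over 16 genes, although Itgb5, a vitronectin receptor subunit, was 1.77-fold lower (1.73 to 1.82), at 147 FPKM against 262 in wild type. Tumour necrosis factor receptors had a median of -0.23 over 16 genes, lost under both filters, with the death receptor Fas 3.11-fold lower (2.37 to 4.19).

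Secreted proteins held many lower genes but as a class were short of the rule, with 222 of 316 below the median of all genes. Of the 316 measured, 88 (27.8%) were at least 1.5-fold lower, against 7.13% of all genes, and 16 (5.06%) were at least 1.5-fold higher, against 4.50%. Their median was -0.23. Leaving out markers of other cell types, but not those of smooth muscle or portal fibroblasts, gave 87 of 314 lower and the same median. Secreted products are thus where lower genes were densest among the 3 protein classes, and the plot of their lists shows medians down to -0.78.

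**Figure D4:**
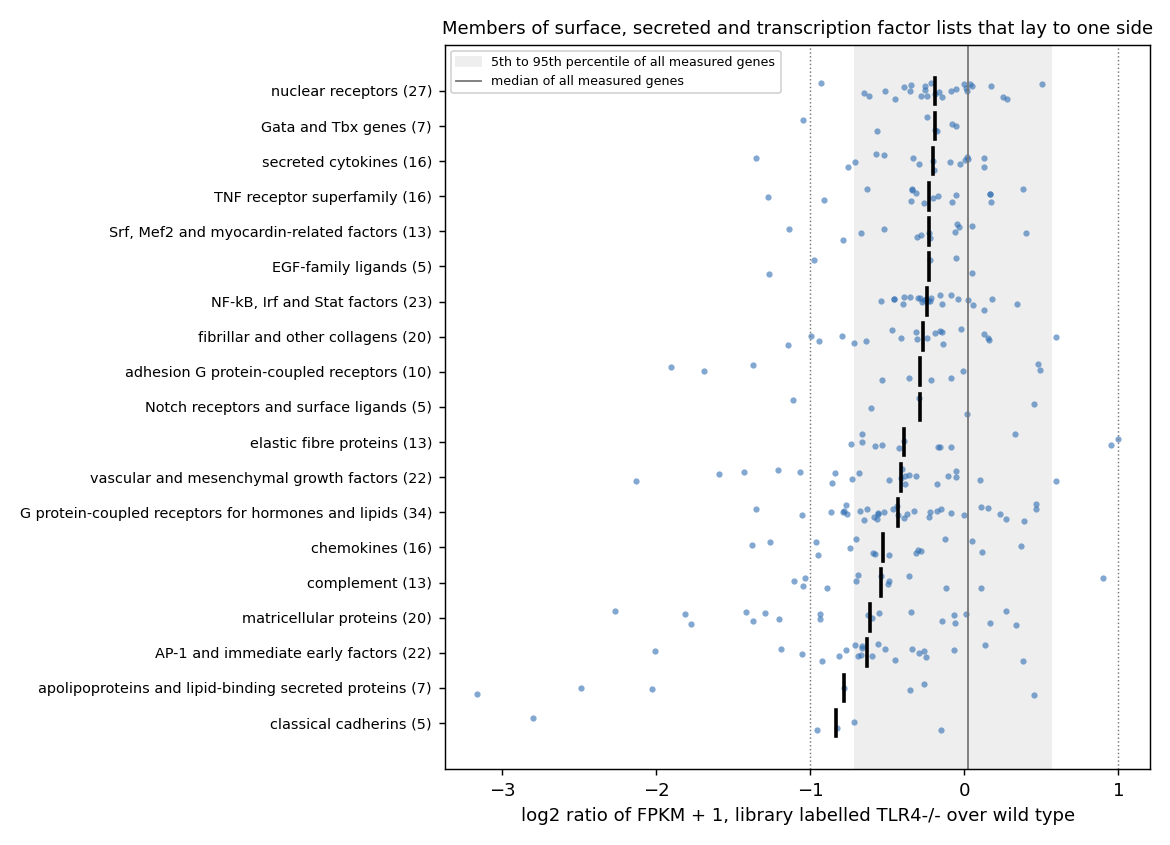
Log2 ratio of FPKM + 1 (library labelled TLR4-/- over wild type, x axis) for each measured member (points) of the surface, secreted and transcription factor lists that lay to one side, with the number measured in brackets and the median as a black bar. All 19 lists lay lower; the band is the 5th to 95th percentile of all 12098 genes and dotted lines mark 2-fold.

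Matricellular proteins, which tune cell contact with the matrix, had a median of -0.61 over 20 genes, 11 of them at least 1.5-fold lower and 0 higher. Ccn2, the growth factor CTGF, stood at 142 FPKM in the library labelled TLR4-/-, 159 in CD44-/- and 369 in wild type, 2.59-fold lower (2.53 to 2.66). Ccn5, a relative of Ccn2 in the CCN family, stood at 5.05 FPKM in the library labelled TLR4-/-, 34.5 in CD44-/- and 28.1 in wild type, 5.56-fold lower (4.81 to 6.47), and Tgfbi, an adhesion protein induced by TGF-beta, at 25.1 FPKM in the library labelled TLR4-/-, 96.6 in CD44-/- and 68.8 in wild type, 2.74-fold lower (2.59 to 2.90). Ccn2 was low in both other genotypes relative to wild type, while Ccn5 and Tgfbi were low in the library labelled TLR4-/- alone. Sparc, the most abundant, stood at 2801 FPKM against 2937 in wild type. This list and the collagens no longer met the rule when genes below FPKM 1 were kept. The 20 measured collagens had a median of -0.27 with 6 past 1.5-fold lower and 1 higher. Col1a1 stood at 358 FPKM in the library labelled TLR4-/-, 205 in CD44-/- and 588 in wild type, and Col3a1 at 246 FPKM in the library labelled TLR4-/-, 696 in CD44-/- and 384 in wild type, so these fibrillar chains were ordered differently across the 3 libraries. The basement membrane chain Col4a1 was slightly higher, at 1264 FPKM against 1154 in wild type.

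Growth factors and a growth factor-binding protein supplied other members at the lower end. Vascular and mesenchymal growth factors had a median of -0.41 over 22 genes, with 9 past 1.5-fold lower and 1 higher. Adm, the vasodilator adrenomedullin, stood at 122 FPKM in the library labelled TLR4-/-, 175 in CD44-/- and 284 in wild type, 2.32-fold lower (2.24 to 2.41). Gas6, the ligand of the receptor Axl, stood at 4.07 FPKM in the library labelled TLR4-/-, 12.6 in CD44-/- and 21.2 in wild type, 5.21-fold lower (4.55 to 5.99), and is also one of the portal fibroblast markers, of which 4 of 6 measured were at least 1.5-fold lower. Csf1, the macrophage growth factor and the most abundant of the list, stood at 283 FPKM against 294 in wild type. Igfbp3, which binds insulin-like growth factors, stood at 61.4 FPKM in the library labelled TLR4-/-, 224 in CD44-/- and 239 in wild type, 3.88-fold lower (3.74 to 4.03).

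Chemokines and complement stood on opposite sides of wild type in the other libraries, with the library labelled TLR4-/- below it and CD44-/- above it, at medians of -0.53 and 1.02 over 16 chemokines and of -0.54 and 1.01 over 13 complement genes. Ccl7, a monocyte chemokine, stood at 6.74 FPKM in the library labelled TLR4-/-, 34.3 in CD44-/- and 14.1 in wild type, 2.09-fold lower (1.71 to 2.57). Cxcl16, a membrane-anchored chemokine, stood at 21.2 FPKM in the library labelled TLR4-/-, 64.1 in CD44-/- and 36.1 in wild type, 1.70-fold lower (1.59 to 1.83). Cxcl12, by far the most abundant chemokine, did not follow, at 768 FPKM in the library labelled TLR4-/-, 616 in CD44-/- and 742 in wild type. Cfb, complement factor B, stood at 9.05 FPKM in the library labelled TLR4-/-, 80.1 in CD44-/- and 19.5 in wild type, 2.16-fold lower (1.96 to 2.38), and C1s1, a protease of the first complement complex, at 16.9 FPKM in the library labelled TLR4-/-, 68.4 in CD44-/- and 32.2 in wild type, 1.91-fold lower (1.78 to 2.05). The macrophage sum moved the same way in both libraries, and its part in these values was not tested. The chemokine list no longer met the rule with no filter.

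A few secreted proteins were higher. Fbln2, a fibulin of elastic and basement membrane matrix that is also counted among portal fibroblast markers, stood at 84.1 FPKM in the library labelled TLR4-/-, 21.5 in CD44-/- and 41.6 in wild type, 2.02-fold (1.95 to 2.09). The other measured markers of that list mostly lay lower, since 4 of its 6 were at least 1.5-fold lower. Ltbp4, which tethers latent TGF-beta to elastic fibres, stood at 26.2 FPKM in the library labelled TLR4-/-, 17.9 in CD44-/- and 13.03 in wild type, 2.01-fold (1.89 to 2.13). Adamts14, a procollagen-cutting protease, stood at 16.0 FPKM in the library labelled TLR4-/-, 8.84 in CD44-/- and 8.67 in wild type, 1.84-fold (1.71 to 1.99). Serpinh1, the collagen chaperone HSP47, was 1.45-fold higher (1.43 to 1.47), at 1077 FPKM against 745 in wild type, while collagen genes as a list lay lower.

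The transcription factor class differed least of the 3 classes. It also held chromatin remodellers, histone and DNA modifying enzymes and high mobility group proteins. Among its 691 genes the median was 0.00, with 9 (1.30%) at least 1.5-fold higher and 39 (5.64%) lower, both below the shares of all genes. The 319 measured zinc finger genes named Zfp had a median of 0.06, with 2 past 1.5-fold higher and 4 lower. AP-1 and immediate early factors, the quick responders to serum, stress and TLR signals, differed most among the 5 lists of factors that lay lower, with a median of -0.63 over 22 genes and 12 past 1.5-fold, all lower. Egr1, an immediate early zinc finger factor, stood at 2.41 FPKM in the library labelled TLR4-/-, 6.39 in CD44-/- and 12.7 in wild type, 5.26-fold lower (4.47 to 6.21). Jun, the core AP-1 subunit, stood at 14.2 FPKM in the library labelled TLR4-/-, 24.6 in CD44-/- and 25.7 in wild type, 1.81-fold lower (1.68 to 1.96). Ier3, an early response gene, stood at 82.4 FPKM in the library labelled TLR4-/-, 88.9 in CD44-/- and 157 in wild type, 1.90-fold lower (1.81 to 2.01). The library labelled TLR4-/- was the lowest of the 3 in 15 of the 22, against 32.9% of all genes.

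NF-kB, Irf and Stat factors, the main effectors downstream of TLR4 and cytokine receptors, lay lower by a small amount, with log2 ratios of -0.54 to 0.34. Their median was -0.24 over 23 genes, 19 below the median of all genes, and none was past 1.5-fold on this scale. Rela, the p65 subunit, stood at 42.5 FPKM in the library labelled TLR4-/-, 49.6 in CD44-/- and 58.7 in wild type, 1.38-fold lower (1.31 to 1.45). Nfkbia, its inhibitor and target, stood at 24.0 FPKM in the library labelled TLR4-/-, 52.1 in CD44-/- and 35.3 in wild type, 1.47-fold lower (1.35 to 1.60). Stat6 was the most abundant and stood slightly higher, at 64.5 FPKM against 56.8 in wild type. The TLR4 pathway list itself had no common direction, with a median of -0.03 over 26 genes, 1 past 1.5-fold higher and 1 lower.

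Rxra, Tbx20 and Hlx were each the furthest from wild type in their lists. Rxra, the partner receptor of retinoid and other nuclear receptors, stood at 43.0 FPKM in the library labelled TLR4-/-, 70.6 in CD44-/- and 83.0 in wild type, 1.93-fold lower (1.87 to 2.00). Tbx20, a T-box factor best known from the heart, stood at 20.4 FPKM in the library labelled TLR4-/-, 38.9 in CD44-/- and 43.2 in wild type, 2.12-fold lower (2.02 to 2.22), and Hlx, a homeobox gene of liver mesenchyme, at 24.0 FPKM in the library labelled TLR4-/-, 40.9 in CD44-/- and 49.8 in wild type, 2.07-fold lower (1.94 to 2.22). Gata4, a factor linked to the quiescent state, was closer, at 59.6 FPKM against 70.5 in wild type. The stellate cell factor Tcf21, picked with its values in view, had 53.6 FPKM in the library labelled TLR4-/- and 54.5 FPKM in wild type. In Rxra, Tbx20 and Hlx the CD44-/- library lay between the others and nearer wild type. Nuclear receptors as a list had a median of -0.19 over 27 genes, and neither filter alternative kept it within the rule. Higher factors were few. Atf5, a relative and target of ATF4, stood at 274 FPKM in the library labelled TLR4-/-, 141 in CD44-/- and 122 in wild type, 2.24-fold (2.17 to 2.31), and the chromatin protein Hmga1 shares reads with its copy Hmga1b. Summed, that pair stood at 539 CPM in the library labelled TLR4-/-, 219 in CD44-/- and 269 in wild type.

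Cholesterol and lysosome genes also lay lower. Cholesterol synthesis had a median of -0.27 over 24 genes, 23 of them below the median of all genes but 1 past 1.5-fold, and a median of 0.12 in CD44-/-. Fdps, which makes farnesyl diphosphate, stood at 79.5 FPKM in the library labelled TLR4-/-, 114 in CD44-/- and 100.1 in wild type, 1.26-fold lower (1.20 to 1.33). Lysosomal hydrolases had a median of -0.23 over 43 genes in the library labelled TLR4-/- and of 0.24 in CD44-/-. Ctsd, cathepsin D, stood at 816 FPKM in the library labelled TLR4-/-, 1587 in CD44-/- and 1105 in wild type, 1.36-fold lower (1.34 to 1.37), and 35 of the 43 genes were lowest in the library labelled TLR4-/-. The spread was wide, with log2 ratios of -1.40 to 0.67, and 3 members were at least 1.5-fold lower and 1 higher. Ctss, cathepsin S, was 3.29-fold lower (2.55 to 4.29), and it is also counted among the macrophage markers. Scarb2, a lysosomal membrane protein outside this list, was 1.85-fold higher (1.81 to 1.89). It stood at 457 FPKM in the library labelled TLR4-/-, 496 in CD44-/- and 246 in wild type. The sum of macrophage markers has the same order across the 3 libraries as Ctsd, and its part in these values was not tested.

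Set side by side, the lists that lay higher in the library labelled TLR4-/- were mostly near 0 in CD44-/-, and several that lay lower were lower in both. Ribosome biogenesis had medians of 0.55 and -0.07 (library labelled TLR4-/- first, CD44-/- after it, both over wild type), tRNA synthetases 0.68 and -0.01, and the ATF4 list 0.76 and 0.02. Mitosis had -0.73 and -0.56, matricellular proteins -0.61 and -0.36, and YAP and TEAD targets -0.35 and -0.35. Both comparisons use the 1 wild-type library, so values set by that library appear in both.

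**Figure D5:**
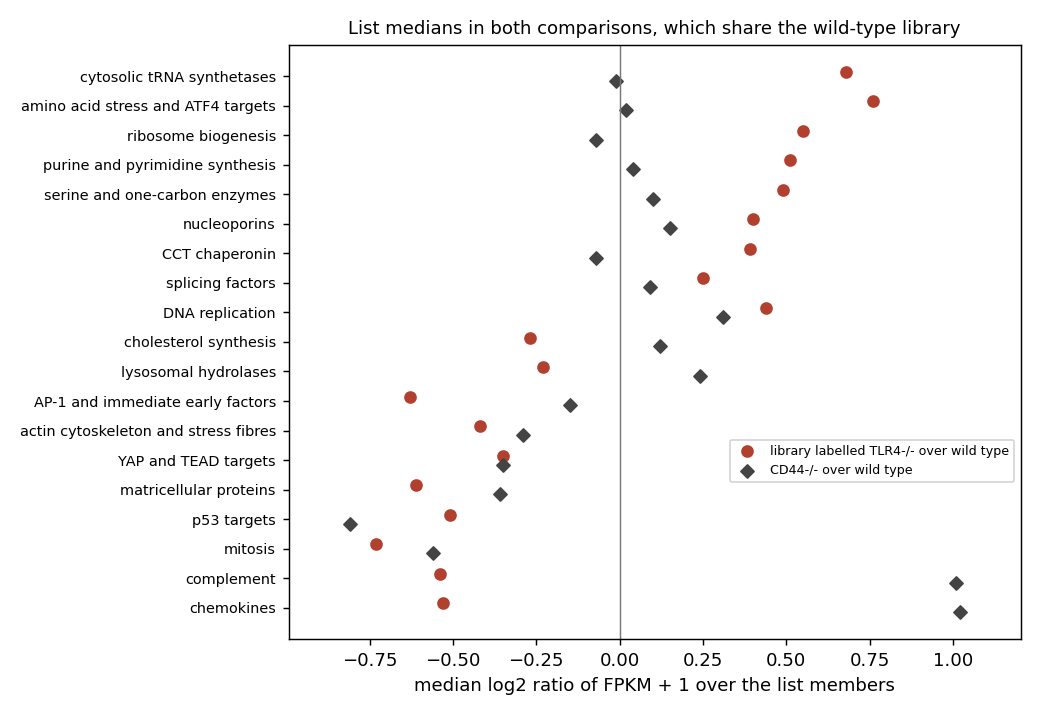
Median log2 ratio of FPKM + 1 over the members of 19 lists for the library labelled TLR4-/- (red circles) and CD44-/- (grey diamonds), each over the same wild-type library. The first 8 lists stand between 0.25 and 0.76 for the library labelled TLR4-/- and between -0.07 and 0.15 for CD44-/-, and complement and chemokines stand on opposite sides of 0.

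Among the 816 genes with at least 100 FPKM in either library, 61 were at least 1.5-fold higher and 75 lower. That filter lets in genes through their higher library alone. Of the 728 genes with a mean of at least 100 FPKM over both libraries, 6.18% were higher and 7.83% lower, against 4.50% and 7.13% of all genes. Those furthest up outside the serine and ATF4 genes included Cyb5r1, a cytochrome b5 reductase, at 128 FPKM in the library labelled TLR4-/-, 59.3 in CD44-/- and 51.4 in wild type, 2.48-fold (2.36 to 2.62). Those furthest down included Septin4, a septin of quiescent stellate cells, at 47.4 FPKM in the library labelled TLR4-/-, 105 in CD44-/- and 151 in wild type, 3.18-fold lower (3.02 to 3.35). Prelp, a matrix proteoglycan, stood at 202 FPKM in the library labelled TLR4-/-, 909 in CD44-/- and 849 in wild type, 4.21-fold lower (4.14 to 4.28), and Shisa2, which holds back Fgf and Wnt receptors in the endoplasmic reticulum, at 23.3 FPKM in the library labelled TLR4-/-, 119 in CD44-/- and 109 in wild type, 4.68-fold lower (4.45 to 4.94). For Prelp and Shisa2, CD44-/- lay near wild type and the library labelled TLR4-/- alone stood low.

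Genes near Tlr4 were looked at last. Within 5 Mb of Tlr4 on chromosome 4 (66827551 to 66846581, GRCm38), 21 other genes were measured, with a median of 0.11. Of these, 2 were at least 1.5-fold higher and 1 lower, where the shares of all genes were 4.50% and 7.13%. The lower gene was Col27a1, a collagen gene, at 0.96 FPKM in the library labelled TLR4-/-, 2.08 in CD44-/- and 3.34 in wild type. Megf9, a membrane protein with EGF-like repeats whose gene begins about 3604 kb away, stood at 69.3 FPKM in the library labelled TLR4-/-, 22.4 in CD44-/- and 25.3 in wild type, 2.73-fold higher (2.59 to 2.89). Atp6v1g1, a subunit of the vacuolar proton pump, stood at 189 FPKM in the library labelled TLR4-/-, 142 in CD44-/- and 125 in wild type. These genes were singled out after their values were seen.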

How the data were processed

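RNA sequencing of primary mouse hepatic stellate cells was analysed, with 1 library each for the TLR4-/-, CD44-/- and wild-type labels. For every gene the authors deposited an expected count, an estimated read number, and an FPKM value. The tool was RSEM and the build mm10, per the submitters' processing notes, with no version stated. RSEM shares reads between similar genes, so near-identical copies are uncertain. Strand handling was not stated either.

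Tables were joined on the Entrez number. Of 17870 genes listed, 17824 matched a symbol in RefSeq for GRCm38.p6. Log2 ratios used FPKM + 1, which understates low genes, and covered genes that reached FPKM 1 on either side. Ratios of named genes are of FPKM without the added 1, with 95% Clopper-Pearson intervals on rounded expected counts. No test was run across genes. Named genes were the 8 at each end of the surface, secreted and transcription classes with FPKM of at least 5 and 50 reads in the higher library, 8 at each end above FPKM 100, and up to 4 furthest and the most abundant of each described list, passing over predicted genes; a gene the rule named is not reported here. Other genes named were chosen after their values were seen. Members and lists were chosen with earlier results of these data known, and 2 symbol patterns were corrected later.

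Alternatives tried were the counting interval, CPM scaled with TMM in edgeR 4.0.16, TPM, scaling by the median of ratios, filters (none, or FPKM 5) and an added 0.1 in place of 1. Lists were also recounted without markers of other cell types (endothelium, macrophages, hepatocytes, biliary epithelium, lymphocytes and neutrophils). Protein-coding genes alone, and the counts over all genes without those markers, were added after seeing the data. Steps were tested on simulated data. Python 3.11.15 and R 4.3.3 were used.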

Additional observations from a re-analysis of the deposited data

How the results depend on the processing

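Counts moved most with the handling of low genes. With a pseudocount of 0.1, genes past 2-fold numbered 214 higher in the library labelled TLR4-/- and 504 lower, and with a filter at FPKM 5 these were 75 and 183, with 529 at least 1.5-fold lower. The genes whose counting interval lay wholly past 1.5-fold higher numbered 350. The median of all genes was 0.000 with no filter, 0.036 with a filter at FPKM 5, 0.020 with TMM-scaled CPM and -0.006 with median-of-ratios scaling, and none of the named values past 1.5-fold changed direction under any alternative. Of the 46 lists that lay to one side, all 46 still did with the smaller pseudocount, TPM, median-of-ratios and TMM, 34 with the filter at FPKM 5 and 27 with no filter. With protein-coding genes alone, chosen after seeing the data, all 46 did, and without markers of other cell types 39 of 40 did, all but the classical cadherins. Smooth muscle and portal fibroblast markers stayed in that recount. No paired analysis was possible because each genotype has 1 library. The precision of a single gene is limited by its reads, and the spread between animals or cultures was not measured.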
